A study of Mus musculus with 6 samples.

Results

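The genes described here are components of the Hippo pathway and target genes of its effector YAP, measured in 2 mouse malignant mesothelioma cell lines, AC29 and AB1. They were 37 genes named by symbol, for their place in the pathway. These genes and the further lists below were chosen with earlier results of these data known. Shares set against all genes therefore describe the lists and test nothing. Of the probe sets annotated to 1 symbol alone, the brightest on average across the 6 arrays stood for each gene. Of the 37 genes, 36 were measured, out of 18193 genes on the array, by 100 probe sets in all, and 29 had more than 1 probe set. Stk3, which encodes a kinase of the core cassette, had no such probe set and was not analysed here. Malignant mesothelioma arises from the mesothelium, which lines the chest and abdomen. AC29, at passage 60, derives from the CBA strain, and AB1, at passage 40, from BALB/c; both are labelled female, and the labels give 6 to 8 weeks as the age for both. Each line was 3 untreated flasks harvested at 80% confluency, with 1 Affymetrix 3′ expression array per flask, so that errors and p-values reflect only how flasks of 1 line vary. With 1 line per strain, line, strain, passage and any processing batch cannot be told apart.

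The Hippo pathway is a kinase cascade that restrains growth in response to cell contact, polarity and tension. Upstream regulators such as merlin activate the MST kinases, which with their scaffold Sav1 activate the LATS kinases and their MOB co-activators. The LATS kinases phosphorylate YAP and its relative TAZ and keep them out of the nucleus. In the nucleus, YAP and TAZ bind the TEAD transcription factors and turn on genes such as Ccn1, Ccn2 and Ankrd1. The gene for merlin, Nf2, and that for the kinase LATS2 are among the tumour suppressors often inactivated in human mesothelioma.

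Values are log2 intensities normalised by RMA, so that 1 unit is a 2-fold difference, and differences are AC29 minus AB1. A gene was called when its adjusted p in limma was under 0.05 and the difference was at least 2-fold. The floor, 6.08, was the 95th percentile of 85 probe sets for olfactory, vomeronasal and taste receptors; where all arrays of 1 line were at or under the floor, the fold is a lower bound. Pairs of AC29 arrays correlated across genes at a Pearson r of 0.995 to 0.997, with AC29 replicate 14 in both of the lower pairs, and pairs of AB1 arrays at 0.997 to 0.998. Mesothelial markers differed between the lines: 9 of 11 were called higher in AC29 and 7 were not above the floor in AB1, and their mean log2 level ran from 10.81 to 11.00 on AC29 arrays against 6.23 to 6.25 on AB1 arrays. Of 6 macrophage and leukocyte markers, Ptprc and Adgre1 were under the floor in both lines, Cd3e and Csf1r were above it in both, Cd68 was above it in AB1 only (6.03 in AC29 and 6.68 in AB1), and Cd14 was 3.39-fold lower in AC29 (7.26 in AC29 and 9.02 in AB1); their mean level ran from 5.66 to 5.78 on AC29 arrays and from 6.05 to 6.15 on AB1 arrays. Of 5 endothelial markers, Pecam1, Cdh5, Tie1 and Tek were under the floor in both lines and Kdr just above it, with mean levels of 4.87 to 5.00 in AC29 and 4.98 to 5.06 in AB1. Of 7 fibroblast markers, Col1a1 (1.69) and Lum (1.54, under the floor in AB1 and near it in AC29) were called higher in AC29 and Pdgfrb (-4.15, under the floor in AC29) higher in AB1, with mean levels of 7.98 to 8.27 in AC29 and 8.15 to 8.26 in AB1. In bulk RNA, fewer cells of a type and less RNA per cell cannot be told apart, and the part of these marker differences in the results below was not tested.

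Most components of the pathway were present in both lines at levels within 2-fold of each other, and a few genes differed widely. In AC29, the TEAD cofactor Vgll3 and the upstream regulator Wwc1 were higher. In AB1, the target genes Ccn2, Ankrd1 and Myof, the transcription factor Tead4 and the scaffold Sav1 were higher. The calls were thus 2 of 36 members higher in AC29 (5.56%, against 5.12% of all genes) and 5 of 36 higher in AB1 (13.9%, against 5.82% of all genes). Among the 10862 genes with a mean above the floor these shares were 7.12% and 8.25%. An adjusted p under 0.05, whatever the size of the difference, was reached by 9 members on the AC29 side (25.0%) and 15 on the AB1 side (41.7%), against 19.1% and 20.0% of all genes and 26.9% and 28.5% of genes above the floor. Over both directions this was 24 members (66.7%), against 39.1% of all genes and 55.4% of those above the floor, and the 7 calls were 19.4% of the members, against 10.9% of all genes. No AC29 array fell within the AB1 range for 24 members (66.7%), against 50.1% of all genes and 66.7% of those above the floor. The median difference of the members was -0.15, against -0.0047 over all genes. The median size of the difference was 0.45, against 0.20 over all genes and 0.35 over those with a mean above the floor. Every member was above the floor in AC29, and Vgll3 alone was not above it in AB1. The members' differences had standard errors of 0.0804 to 0.136.

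**Figure D1:**
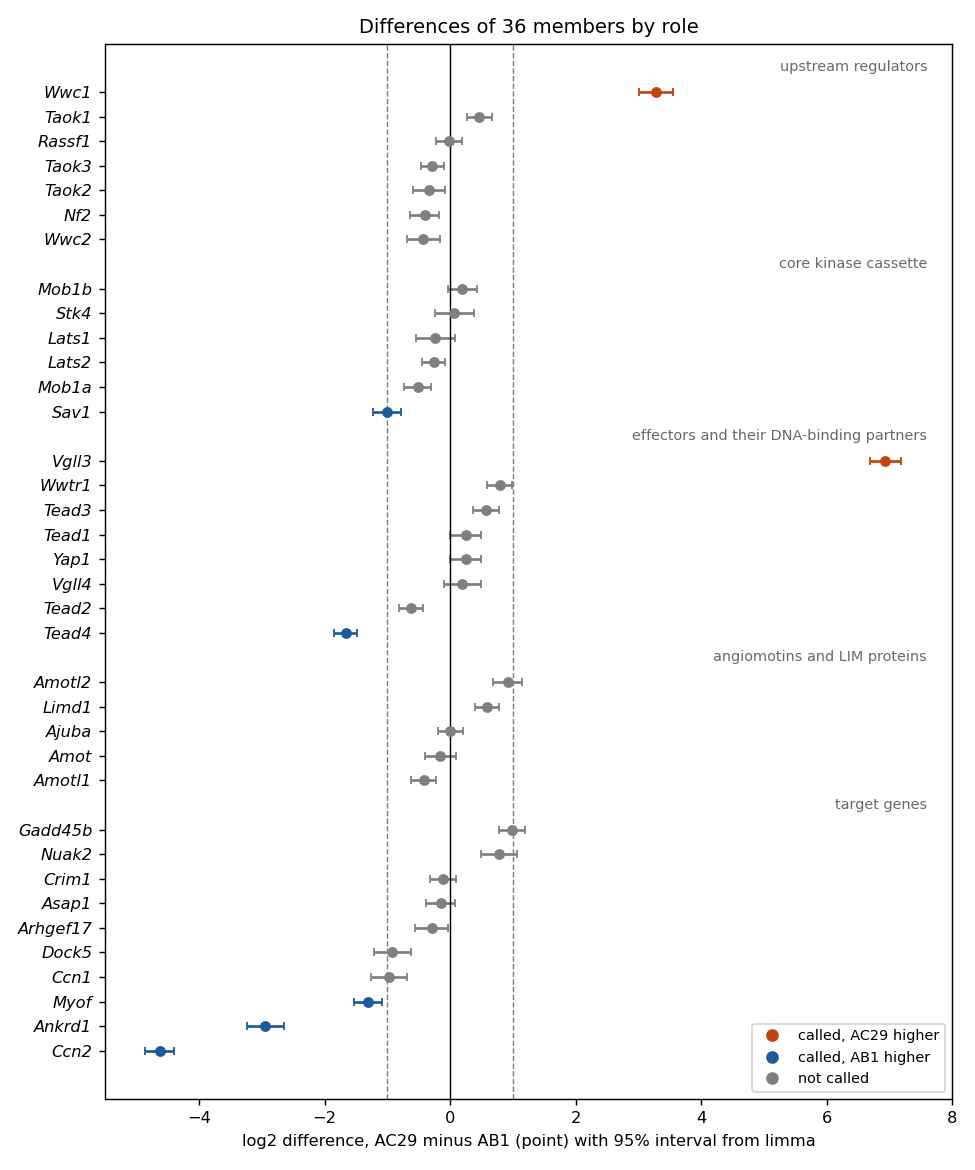
Log2 difference, AC29 minus AB1, of the 36 measured members (x axis) grouped by role and ordered by size within each role; points are limma estimates over 3 arrays per line, bars are 95% intervals, and dashed lines mark a 2-fold difference. Vgll3 (6.93) and Wwc1 (3.28) lie far to the AC29 side, Ccn2 (-4.63) and Ankrd1 (-2.94) far to the AB1 side, and 29 members lie between the dashed lines.

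Among the upstream regulators, 1 of 7 was called (14.3%, against 10.9% of all genes in either direction). Wwc1 encodes KIBRA, a WW domain protein that acts with merlin to activate the LATS kinases. It read 9.96, 10.15 and 10.20 on the AC29 arrays, against 6.75, 6.67 and 7.04 on the AB1 arrays. All 3 AC29 arrays lay above all AB1 arrays, and the AB1 values were close to the floor. The difference was 9.71-fold (log2 3.28 ± 0.12, SE; adjusted p = 3.83e-08). That probe set is of a kind marked for possible cross-hybridisation; without such probe sets Wwc1 differed by 2.81. This value is from a second Wwc1 probe set, at 8.65 in AC29 and 5.84 in AB1, where all arrays were under the floor, so that the true difference may be larger. The remaining 2 Wwc1 probe sets were not above the floor on any array, and the mean of all 4 differed by 1.68. Its paralog Wwc2 leaned slightly to AB1, at 9.92 ± 0.18 in AC29 and 10.35 ± 0.14 in AB1 (SD, n = 3), and all 5 of its probe sets had a negative difference, of -0.13 to -0.50. The paralogs thus differed in opposite directions, 1 of them past the rule.

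Nf2, which encodes merlin, read 8.89, 8.83 and 9.12 on the AC29 arrays, against 9.34, 9.45 and 9.26 on the AB1 arrays. The arrays did not overlap, but the difference was -0.40 (95% interval -0.64 to -0.17; adjusted p = 0.0120), less than 2-fold. Its other probe sets did not all share this sign: they differed by 0.68, -0.15 and 0.06, the first with an adjusted p of 0.00233 over all probe sets, at 7.18 in AC29 and 6.50 in AB1. The direction of the small Nf2 difference therefore depended on the probe set. The TAO kinases, which phosphorylate the MST kinases, were split: Taok1 differed by 0.47 (adjusted p = 0.00247), Taok2 by -0.33 (0.0450) and Taok3 by -0.28 (0.0218), none of them 2-fold. Rassf1, which binds the MST kinases, read 10.23 ± 0.12 in AC29 and 10.25 ± 0.02 in AB1 (SD, n = 3), with a 95% interval of the difference of -0.22 to 0.18.

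In the core kinase cassette, 1 of 6 measured members was called (16.7%, against 10.9% of all genes in either direction). This was the scaffold Sav1, which holds the MST and LATS kinases together. Sav1 read 9.39, 9.17 and 9.46 on the AC29 arrays, against 10.27, 10.42 and 10.35 on the AB1 arrays. Every AC29 array lay under every AB1 array, with AC29 replicate 14 the lowest. The difference was -1.01 ± 0.10 (SE; adjusted p = 3.70e-05), which is 2.01-fold and on the edge of the rule. It fell short of 2-fold with quantile normalization (-0.997), with array weights (-0.96), without AC29 replicate 14 (-0.92) and without AB1 replicate 5 (-0.97), while the adjusted p stayed at or under 0.000392 in these settings. The other Sav1 probe set read 8.64 in AC29 and 9.70 in AB1, a difference of -1.06.

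The kinases and their co-activators were closer to each other. Lats2 differed by -0.26 by its brightest probe set (8.57 ± 0.05 in AC29 and 8.83 ± 0.05 in AB1, SD, n = 3; adjusted p = 0.0280), and all 5 of its other probe sets also had negative differences, of -0.46 to -1.62. The widest of these, at -1.62, read 5.03 in AC29 and 6.65 in AB1, under the floor in AC29. A Lats2 probe set nearly as bright as the first read 8.45 in AC29 and 8.94 in AB1 (-0.49). Another read 8.22 in AC29 and 9.05 in AB1 (-0.82). The brightest thus gave the smallest Lats2 difference, and the mean of all Lats2 probe sets differed by -0.70 (adjusted p = 4.68e-05). Lats1 read 9.65 ± 0.23 in AC29 and 9.88 ± 0.18 in AB1, with an interval of -0.54 to 0.07 for the difference. Mob1a, an activating partner of the LATS kinases, differed by -0.52 (adjusted p = 0.00190), and its 3 probe sets spanned only -0.43 to -0.52. Its paralog Mob1b differed by 0.19 (interval -0.04 to 0.42). Stk4, which encodes an MST kinase, read 9.70 ± 0.27 in AC29 and 9.64 ± 0.10 in AB1, and its arrays overlapped. By their brightest probe sets, none of Lats1, Lats2, Mob1a, Mob1b and Stk4 passed the 2-fold rule in either direction.

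The effectors YAP and TAZ were both well above the floor in both lines. Yap1 read 10.24, 10.08 and 10.34 on the AC29 arrays, against 9.92, 10.15 and 9.85 on the AB1 arrays. The arrays overlapped, and the difference was 0.25 with a 95% interval of -0.00167 to 0.49 (adjusted p = 0.113). Wwtr1, which encodes TAZ, read 11.49, 11.32 and 11.40 on the AC29 arrays, against 10.52, 10.67 and 10.64 on the AB1 arrays. All AC29 arrays were above all AB1 arrays, the difference was 0.79 (1.73-fold; adjusted p = 7.73e-05), and its other probe sets differed by 0.53 and 0.57. Wwtr1 thus leaned to AC29 by every probe set without reaching 2-fold.

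The 4 TEAD factors, which carry YAP and TAZ to DNA, went different ways. Tead4 read 6.60, 6.60 and 6.72 on the AC29 arrays, against 8.29, 8.35 and 8.27 on the AB1 arrays. The lines were far apart relative to their spread, with the AC29 arrays near the floor. The difference was -1.66 ± 0.08 (SE; 3.17-fold; adjusted p = 3.40e-07). A dimmer Tead4 probe set read 6.20 in AC29 and 6.49 in AB1, a difference of -0.29, and on the mean of its probe sets Tead4 just missed the rule (-0.98). Tead2 differed by -0.62 (8.24 in AC29 and 8.86 in AB1; adjusted p = 0.000260) and Tead3 by 0.57 (8.38 in AC29 and 7.80 in AB1; adjusted p = 0.000703). Tead1 differed by 0.25 (10.14 ± 0.13 in AC29 and 9.89 ± 0.15 in AB1, SD, n = 3; adjusted p = 0.106). Its other, dimmer probe set read 6.78 in AC29 and 6.19 in AB1. That difference was 0.58 (adjusted p = 0.00514 over all probe sets), and the mean of both probe sets differed by 0.41. Tead1 thus leaned to AC29 by both, with an adjusted p under 0.05 only by the dimmer. Tead2 and Tead4 were therefore on the AB1 side and Tead3 on the AC29 side, with Tead4 the only TEAD gene past the 2-fold minimum.

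Vgll3 had the largest difference of all members and stood at rank 18 among 18193 genes by size of the difference. It encodes a vestigial-like protein, a cofactor that binds TEAD factors in place of YAP. Vgll3 read 10.33, 10.06 and 10.12 on the AC29 arrays, against 3.21, 3.39 and 3.11 on the AB1 arrays. The AB1 arrays were all under the floor, so that Vgll3 was at least 17.0-fold higher in AC29 (adjusted p = 3.56e-10). Its other 2 probe sets agreed in direction, at 9.56 in AC29 and 3.55 in AB1 for one and 9.21 in AC29 and 3.50 in AB1 for the other, with AB1 under the floor in both. Vgll4, which competes with YAP for TEAD factors, read 6.88 ± 0.18 in AC29 and 6.69 ± 0.20 in AB1 (SD, n = 3) and had overlapping arrays.

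**Figure D2:**
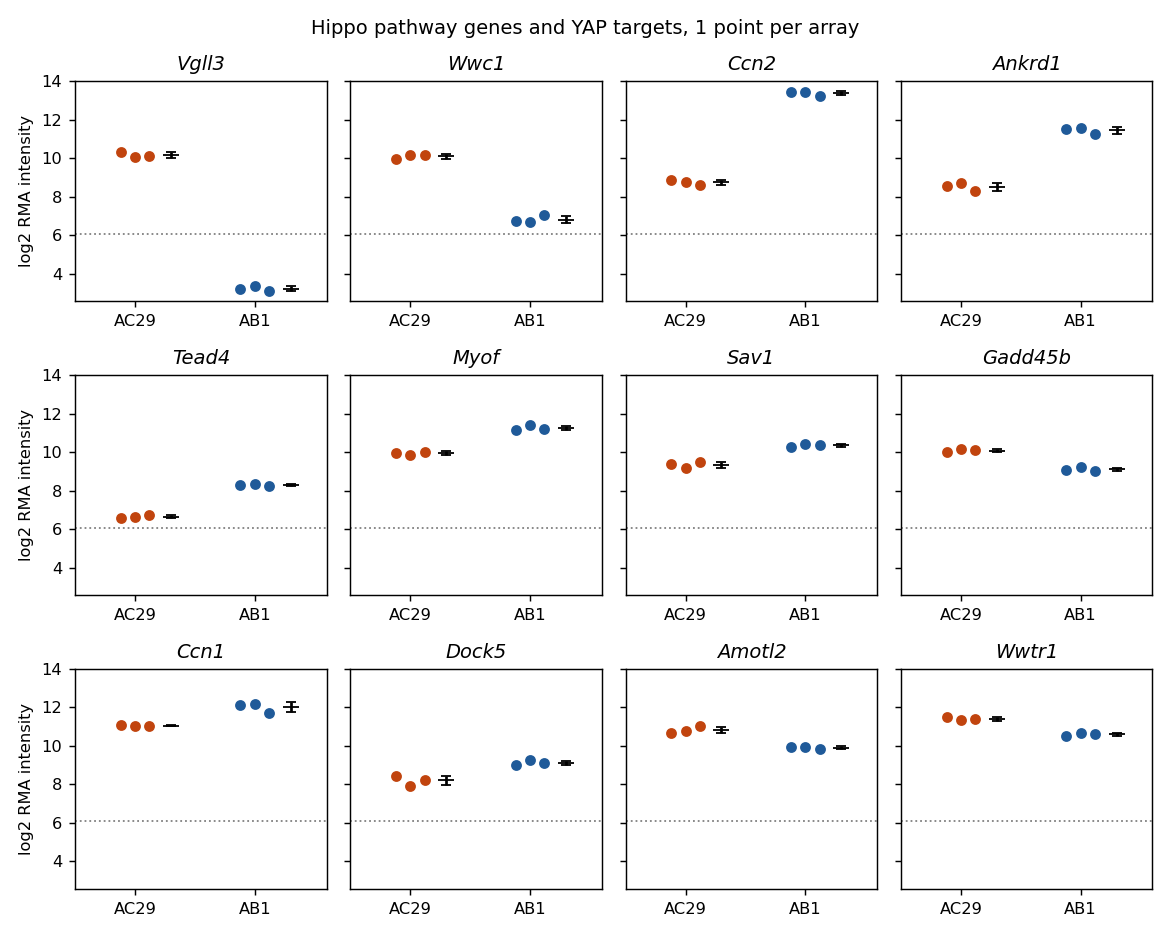
Log2 RMA intensity (y axis) of 12 members on each array, 3 AC29 arrays at left and 3 AB1 arrays at right in each panel; black marks are means with SD and the dotted line is the floor of 6.08. The lines do not overlap in any panel, and Vgll3 lies under the floor on all AB1 arrays.

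Of the 5 angiomotins and LIM proteins, none was called, against 10.9% of all genes in either direction. Angiomotins hold YAP at junctions and in the cytoplasm, and Amotl2 is itself a YAP target. Amotl2 read 10.69, 10.78 and 11.02 on the AC29 arrays, against 9.94, 9.96 and 9.83 on the AB1 arrays, without overlap (0.92, 1.89-fold; adjusted p = 9.19e-05). Amotl1 differed the other way, by -0.42 (adjusted p = 0.00441), and Amot by -0.15 with overlapping arrays. Limd1, a LIM protein that inhibits the LATS kinases, differed by 0.59 (9.58 ± 0.06 in AC29 and 8.997 ± 0.068 in AB1, SD, n = 3; adjusted p = 0.000405), and its other probe set by 0.45. Ajuba, a related LIM protein, read 10.74 ± 0.09 in AC29 and 10.74 ± 0.06 in AB1, with an interval of -0.20 to 0.20 for the difference, the smallest difference of all members.

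Of the 10 target genes, 3 were called higher in AB1 (30.0%, against 5.82% of all genes and 8.25% of those above the floor) and none higher in AC29 (against 5.12% and 7.12%). A negative difference was seen in 8 of the 10, against 9241 of 18193 genes, and the median difference of the 10 was -0.61. Ccn2 encodes connective tissue growth factor, a secreted matrix protein. It read 8.86, 8.77 and 8.61 on the AC29 arrays, against 13.43, 13.46 and 13.25 on the AB1 arrays, a 24.8-fold difference (log2 -4.63 ± 0.10, SE; adjusted p = 1.85e-09). Both lines were well above the floor, and the gap was many times the spread within either. Ankrd1, an ankyrin repeat protein known from heart muscle, read 8.54, 8.72 and 8.31 on the AC29 arrays, against 11.54, 11.60 and 11.25 on the AB1 arrays, a 7.69-fold difference (-2.94; adjusted p = 1.65e-07). Its second probe set gave -2.89. Myof, which encodes the membrane repair protein myoferlin, read 9.98, 9.83 and 10.03 on the AC29 arrays, against 11.14, 11.39 and 11.21 on the AB1 arrays (2.47-fold; adjusted p = 6.22e-06). That probe set, too, is marked for possible cross-hybridisation. The other Myof probe set was not above the floor on any array, so that Myof differed by only -0.20 when marked probe sets were left out and by -0.75 on the mean of both.

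The secreted protein gene Ccn1, a paralog of Ccn2, was near the edge of the rule. Ccn1 read 11.07, 11.06 and 11.01 on the AC29 arrays, against 12.15, 12.18 and 11.71 on the AB1 arrays. The arrays did not overlap, and AB1 replicate 6 was the nearest to AC29. The difference was -0.97 ± 0.13 (SE; 1.96-fold; adjusted p = 0.000241); it passed the rule without AB1 replicate 6 (-1.12) and by another Ccn1 probe set (-1.08), the value without marked probe sets, since the brightest Ccn1 probe set is also of the marked kind. The other 2 Ccn1 probe sets, both above the floor, differed by -0.40 and -0.28 (adjusted p = 0.395 and 0.599 over all probe sets), and the mean of all 4 by -0.68. AB1 replicate 6 was also the lowest AB1 array for Ccn2 and for Ankrd1. Dock5, an exchange factor for the GTPase Rac, differed by -0.92 (8.43, 7.93 and 8.25 on the AC29 arrays, against 9.03, 9.25 and 9.09 on the AB1 arrays; adjusted p = 0.000407), and passed the rule without AC29 replicate 13 (-1.03) and by 1 of its 2 other probe sets (-1.01).

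Not all targets lay on the AB1 side. Gadd45b, a stress response gene, read 9.99, 10.15 and 10.11 on the AC29 arrays, against 9.08, 9.20 and 9.01 on the AB1 arrays. The arrays were fully separate, the difference was 0.98 (1.98-fold; adjusted p = 2.26e-05), and it passed the rule without AC29 replicate 13 (1.03) or AB1 replicate 5 (1.04). Nuak2, a kinase related to AMP-activated kinase, differed by 0.78 (7.79 ± 0.23 in AC29 and 7.01 ± 0.13 in AB1, SD, n = 3; adjusted p = 0.000899). Crim1, a membrane protein that binds bone morphogenetic proteins, Asap1, a GTPase-activating protein for Arf, and Arhgef17 differed by -0.11, -0.15 and -0.29, and their arrays overlapped. The other Crim1 probe set had the opposite sign, at 0.40 (adjusted p = 0.0873 over all probe sets). The other Asap1 probe sets differed by -0.27 and 0.07.

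**Figure D3:**
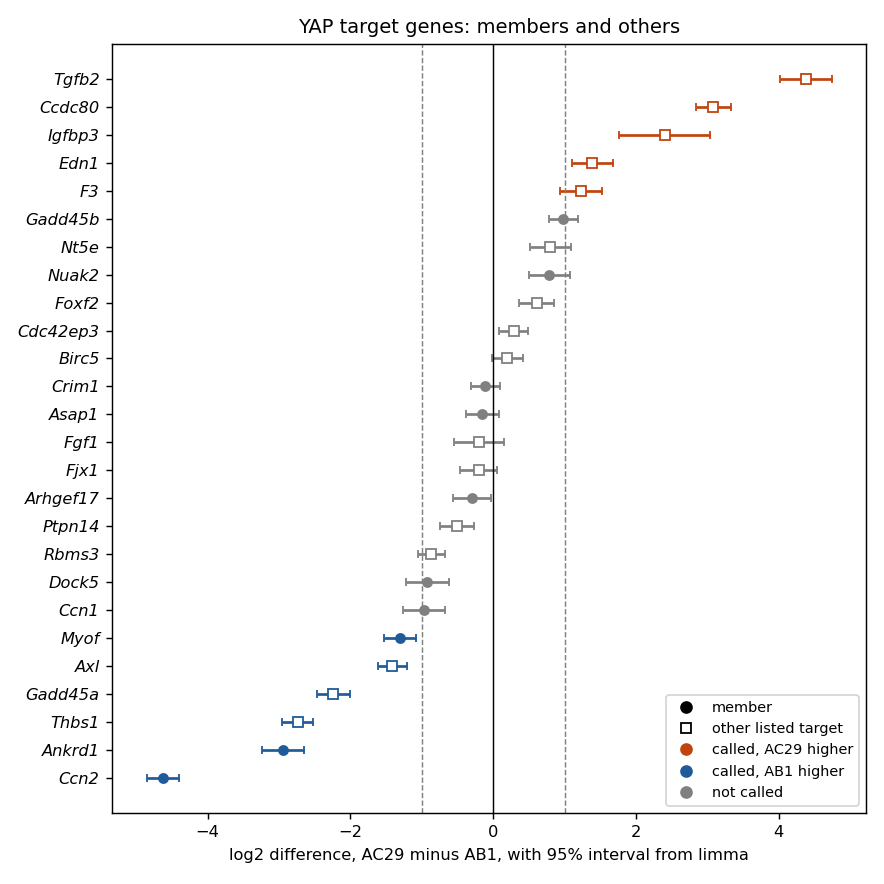
Log2 difference, AC29 minus AB1 (x axis), of 26 measured YAP target genes in order of size; filled circles are the 10 members, open squares the 16 other listed targets, bars are 95% intervals from limma with 3 arrays per line, and dashed lines mark a 2-fold difference. Called genes lie at both ends, from Tgfb2 at 4.38 to Ccn2 at -4.63.

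A wider set of YAP targets had calls in both directions. Of 16 other measured targets, 5 were called higher in AC29 (31.25%, against 5.12% of all genes and 7.12% of those above the floor). Higher in AB1 were 3 (18.75%, against 5.82% and 8.25%). Together with the 10 members the counts were 5 and 6 of 26. The secreted growth factor Tgfb2 read 10.15 in AC29 and 5.76, under the floor, in AB1; it rose by at least 16.8-fold. The matrix protein Ccdc80 was 8.49-fold higher in AC29 (11.13 in AC29 and 8.05 in AB1). Igfbp3, which binds insulin-like growth factors, was higher by at least 1.88-fold (6.99 in AC29 and 4.59 in AB1). Edn1, the precursor of endothelin, and F3, which encodes tissue factor, were 2.62-fold and 2.34-fold higher in AC29. Thbs1, which encodes thrombospondin 1, was 6.67-fold lower in AC29 (9.48 in AC29 and 12.22 in AB1), Gadd45a, a relative of Gadd45b, 4.72-fold lower and the receptor tyrosine kinase Axl 2.66-fold lower (10.44 in AC29 and 11.85 in AB1). Gadd45a and Gadd45b were thus on opposite sides. Ptpn14, a phosphatase that binds YAP, differed by -0.50 and was not called. The calls carry adjusted p-values of at most 0.000119.

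Promoter sequences were looked at because TEAD factors bind a core of GGAATG. They are shown for 4 chosen members that hold this core and were called or near the edge of the rule. Amotl2 (1.89-fold higher in AC29), with 1 match at base -65, is not shown. The letters were searched on both strands, as GGAATG or CATTCC, in the 250 bases before each start in the RefSeq table of build GRCm38.p6, which held 28 of the 37 genes. Stk3, Tead1, Tead4, Limd1, Ccn2, Nuak2, Arhgef17, Dock5 and Asap1 were not in it. Each sequence runs 5′ to 3′ on the gene's own strand up to the base before the start, with matches in capitals. Ankrd1 lies at chr19:36119845-36120094 on the minus strand, Ccn1 at chr3:145649986-145650235 on the minus strand, Vgll3 at chr16:65814939-65815188 on the plus strand and Sav1 at chr12:69987003-69987252 on the minus strand.
Ankrd1: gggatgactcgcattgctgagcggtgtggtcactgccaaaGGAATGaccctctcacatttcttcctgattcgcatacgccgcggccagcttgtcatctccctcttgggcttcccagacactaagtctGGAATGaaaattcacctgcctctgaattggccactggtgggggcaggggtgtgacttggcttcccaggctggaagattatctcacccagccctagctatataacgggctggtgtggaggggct
Ccn1: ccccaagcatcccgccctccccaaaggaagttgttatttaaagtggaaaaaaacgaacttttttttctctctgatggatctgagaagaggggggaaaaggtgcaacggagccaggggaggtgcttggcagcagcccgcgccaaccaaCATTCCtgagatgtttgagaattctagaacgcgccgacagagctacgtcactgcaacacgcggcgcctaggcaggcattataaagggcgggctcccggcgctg
Vgll3: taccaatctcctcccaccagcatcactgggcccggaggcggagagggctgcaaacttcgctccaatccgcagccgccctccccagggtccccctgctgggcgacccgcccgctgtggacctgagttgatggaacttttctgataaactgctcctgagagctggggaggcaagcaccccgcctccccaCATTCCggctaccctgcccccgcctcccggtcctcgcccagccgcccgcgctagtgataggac
Sav1: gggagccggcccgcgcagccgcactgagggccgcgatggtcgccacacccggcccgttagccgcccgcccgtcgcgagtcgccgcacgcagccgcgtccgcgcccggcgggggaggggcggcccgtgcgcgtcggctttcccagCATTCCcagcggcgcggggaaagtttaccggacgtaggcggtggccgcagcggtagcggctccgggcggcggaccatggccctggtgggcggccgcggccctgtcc
Ankrd1, 7.69-fold higher in AB1, held 2 matches, which begin at bases -210 and -123 counted from the start. Ccn1 held 1 match at base -103, Vgll3 1 at base -63 and Sav1 1 at base -106. In all, 13 of 28 members (46.4%) held a match in at least 1 of their promoters, against 14.4% of the 27025 genes in the table. Of the called members in the table, Wwc1 and Myof held none. Members that differed little also held matches, among them Yap1, Wwc2 with 3 and Ajuba with 2. A match is a run of letters and not a measured binding site.

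**Figure D4:**
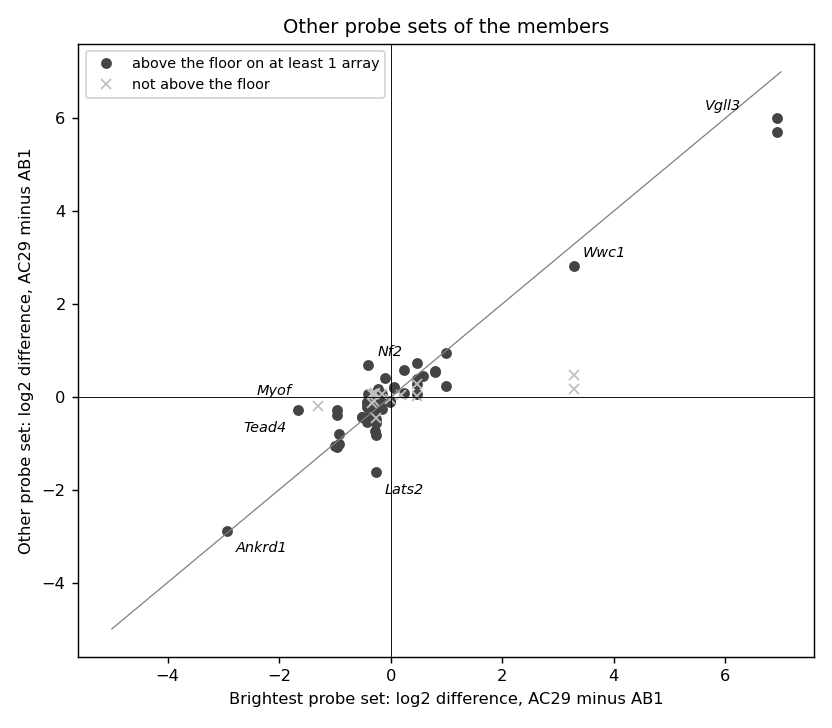
Log2 difference, AC29 minus AB1, of each of the 64 other probe sets of the members (y axis) against that of the brightest probe set of the same gene (x axis); the diagonal marks equal values, dark points are above the floor on at least 1 array and pale crosses are not. Of 50 dark points, 45 have the same sign on both axes.

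The other probe sets bore on how firm each member's value was. Of 64, 50 were above the floor on at least 1 array, and 45 of these had the sign of the gene's brightest probe set. For the called members there were 6 such probe sets, all with the same sign, and 5 passed the rule themselves; the sixth was the dim Tead4 probe set. In members that were not called, 3 probe sets passed the rule, those of Lats2, Ccn1 and Dock5 given above. The only probe set with the opposite sign and an adjusted p under 0.05 was that of Nf2.

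Most of the further Hippo regulators were not called either. Of 45 measured, 5 were called higher in AC29 (11.1%, against 5.12% of all genes) and 4 higher in AB1 (8.89%, against 5.82%). Over both directions the calls were 20.0%, against 10.9% of all genes, and 36 were not called. Of the 45, 10 were under the floor in both lines, where a small difference does not show similar levels. Vgll2, another vestigial-like TEAD cofactor, averaged 9.60 in AC29 and 5.25 in AB1, a rise of at least 11.5-fold (adjusted p = 2.68e-09), so that both Vgll2 and Vgll3 were above the floor in AC29 only. Stk25, a kinase found in STRIPAK complexes, was 3.41-fold higher in AC29, Stk38, a kinase of the LATS family, 2.17-fold, and Rassf2 at least 1.67-fold. Heg1 was called, with both lines under the floor. Rassf3 was 2.93-fold lower in AC29 (7.25 in AC29 and 8.80 in AB1). Map4k5, of the MAP4K kinases that act on LATS in parallel to MST, was 2.51-fold lower, Frmd6, a FERM domain protein related to merlin, 2.30-fold and the scaffold Dlg5 2.22-fold. The large protocadherin Fat1 differed by -0.44 (10.81 in AC29 and 11.25 in AB1), and Fat4 was under the floor in both lines.

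Map4k5, Sav1 and Frmd6 are neighbours on chromosome 12, within 1 Mb of Sav1, and all 3 were lower in AC29. Of 27 other measured genes within 1 Mb of Sav1, 17 were above the floor in at least 1 line. Of these 17, 13 had a negative difference, 10 of them with an adjusted p under 0.05, and 1 had a positive difference with an adjusted p under 0.05. Among all genes with a mean above the floor, 28.5% had an adjusted p under 0.05 on the AB1 side and 26.9% on the AC29 side. That filter is on the mean over both lines and differs from the filter on the 17. Klhdc1, at 5.53 in AC29 and 6.04 in AB1, is among the 17 but would not pass it. The median difference of the 17 neighbours was -0.51, against -0.0038 over genes with a mean above the floor. Map4k5 and Frmd6 were the only genes of the 27 called lower in AC29, and Dmac2l, called at 1.72, was the only one called higher. Around Yap1, 20 measured genes within 1 Mb held 1 call toward AC29 and 2 toward AB1, and the apoptosis inhibitors Birc2 and Birc3, its neighbours, differed by 0.49 and -0.52. Around Nf2, 1 of 44 was called higher in AC29 and 5 higher in AB1. Of all genes, 5.12% were called higher in AC29 and 5.82% higher in AB1. Gene order was taken from RefSeq on GRCm38.p6.

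**Figure D5:**
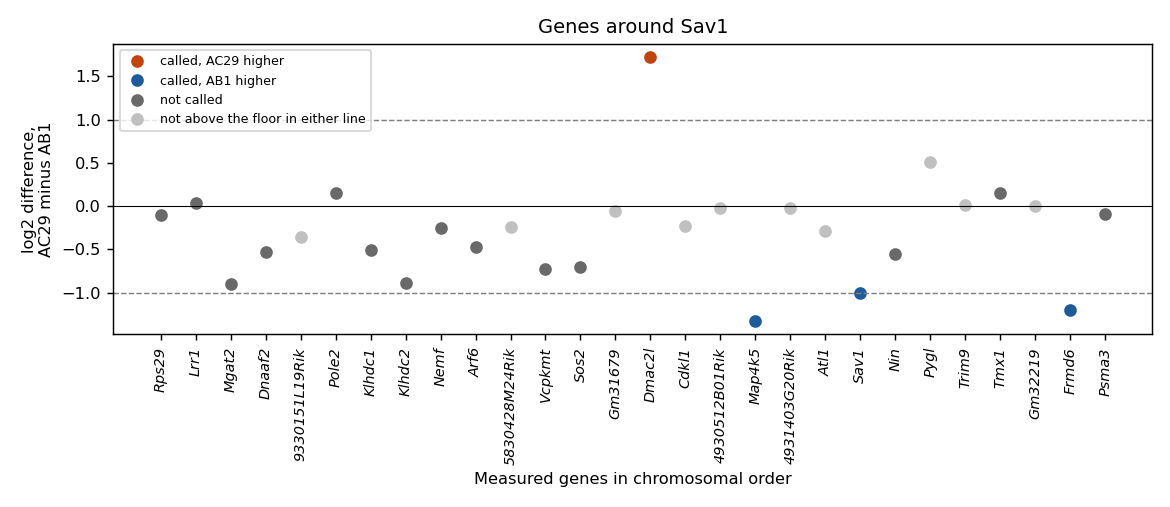
Log2 difference, AC29 minus AB1 (y axis), of Sav1 and the 27 other measured genes within 1 Mb of it, in chromosomal order (x axis, not to distance); pale points are genes under the floor in both lines and dashed lines mark a 2-fold difference. Map4k5, Sav1 and Frmd6 lie under the lower dashed line, and Dmac2l alone above the upper one.

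Of the genes for factors that act on the same targets beside YAP, a few were called and most were not. AP-1 proteins bind near TEAD factors at many enhancers. Of 7 AP-1 genes, 3 were called, all higher in AB1 (42.9%, against 5.82% of all genes). This list and that of the actin program below were chosen with earlier results of these data known. These were Jun (8.64 in AC29 and 10.88 in AB1, 4.71-fold; adjusted p = 6.65e-08), Fosl1 (9.44 in AC29 and 10.97 in AB1, 2.89-fold; adjusted p = 5.56e-07) and Fosb, at least 1.13-fold, near the floor in AB1. Jund (0.48) and Fos (0.41) leaned to AC29 and Fosl2 (-0.69) to AB1, each with an adjusted p under 0.05 but less than 2-fold. Junb differed by -0.06. Ccn1, Ccn2 and Ankrd1 are also known to respond to the serum response factor SRF and its MRTF cofactors, which sense actin. Of 15 genes of this actin program, 6 were called higher in AB1 (40.0%, against 5.82% of all genes) and 1 higher in AC29 (6.67%, against 5.12%). An adjusted p under 0.05, whatever the size, was reached by 9 of the 15 on the AB1 side. On the AC29 side it was reached by 2, the called gene and Tpm1 (0.73). The smooth muscle actin Acta2 was 104-fold lower in AC29, the myosin light chain Myl9 6.43-fold lower, Fhl2 3.68-fold, Tagln 3.51-fold, Cnn2 2.48-fold and the tropomyosin Tpm2 2.15-fold, while the calponin Cnn1 was 3.06-fold higher in AC29. Srf itself differed by -0.91 (8.48 in AC29 and 9.38 in AB1; adjusted p = 0.000135), under the 2-fold minimum, and the cofactors Mrtfa and Mrtfb by -0.20 and -0.16. Their part in the differences of the YAP targets was not tested.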

How the data were processed

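RNA of 3 AC29 and 3 AB1 flasks was hybridised to Affymetrix 3′ expression arrays, 1 per flask, from 5 ug of total RNA (labels' protocols). On each array 45101 probe sets had a deposited log2 value, between 2.23 and 14.69. GCOS, RMA and Partek 6.4 are the tools listed in the submitters' processing notes, where their roles are not stated. RMA pulls dim probe sets together, so that differences of very dim genes can be understated. The log2 scale was taken from this range and these notes. Scan dates, detection calls and probe intensities were not used here, so no batch or background correction could be tested. Control probe sets (64) were removed. In the platform annotation, the source of gene names, 34945 probe sets had 1 symbol, 932 several and 9160 none; 34741 of the first matched RefSeq by Entrez identifier.

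All probe sets were fitted in limma 3.58.1, with the cell line as the sole factor (R 4.3.3; lmFit and eBayes, 2-sided) with 4 residual degrees of freedom. P-values were adjusted over 18193 genes by Benjamini and Hochberg, and those of single probe sets over all probe sets. The model was tested on simulated data. The members and lists were chosen with earlier results of these data known. Named were all members, up to 6 called genes per direction of each further list, and a few fixed names. No depth applies to arrays; their number limits the precision.

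The alternatives were other normalizations, probe set rules, variance models, thresholds and floors, a filter on dim genes and leaving out each array.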

Additional observations from a re-analysis of the deposited data

How the results depend on the processing

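Of 504 values of single members under the alternatives, 483 kept their direction and their side of the 2-fold rule, 7 lost the call, 5 gained it and 9 changed sign. The filter on dim genes, the stricter adjusted p and the robust variance model leave each difference as it was. In these settings only the adjusted p could change a call. Leaving out marked probe sets changes the difference only where the brightest is marked. Many of the 483 values therefore could not have changed sign. The count of members higher in AB1 was 5, and 3 when all probe sets of a gene were averaged, where Tead4 and Myof were lost; without each array in turn it ran from 4 to 6, and that of members higher in AC29, 2 as reported, from 2 to 3. Without a minimum difference, 9 members were called higher in AC29 and 15 higher in AB1, and 3475 and 3630 of all genes. Without each array in turn, 897 to 986 of all genes were called higher in AC29 and 1024 to 1095 higher in AB1. The values that changed sign were all small and not called: with probe sets averaged, Nf2 was 0.0479 and Crim1 0.147; Ajuba was -0.0102 with quantile normalization and -0.0180 with arrays centred on their medians. Without each array in turn, Rassf1 ran from -0.0548 to 0.0492 and Stk4 from -0.0580 to 0.210, both changing sign without AC29 replicate 13, and Ajuba from -0.0327 to 0.0557, changing sign without AC29 replicate 13, AC29 replicate 15 or AB1 replicate 5. Possible cross-hybridisation limits Myof, Wwc1 and Ccn1, and background limits Tead4: with a floor of 7.27, the 99th percentile among receptor probes, 3 members were not above it in AC29 and 5 in AB1. No paired analysis was possible because the lines share no replicate numbers. Quantile normalization and centring moved the median over all genes to -0.01 and -0.02.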
